A study of Mus musculus with 8 samples.

Results

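PTH treatment of mouse osteoblasts raised transcripts of the growth factor Vegfa 3.90-fold and, to a lesser extent, those of its binding partners Nrp1, Flt1 and Kdr, and lowered those of Vegfc, Angpt1 and, by calls that leaving out a single sample could end, Vegfb and Angpt2. These are members of the VEGF and angiopoietin family, for which 10 genes were taken by symbol from a table of 47706 genes (Vegfa, Vegfb, Vegfc, Pgf, Flt1, Kdr, Nrp1, Nrp2, Angpt1 and Angpt2). Each symbol had 1 entry in the table, and all 10 passed the filter on low counts. The cells were primary calvarial osteoblasts, the bone-forming cells of the skullcap of neonatal mice. Poly(A) RNA was sequenced from 4 samples that had received PTH, the parathyroid hormone fragment used as a bone-building agent, for 24 hours and from 4 vehicle-treated samples, all on day 7 of differentiation and after serum starvation. The sample titles carry the abbreviation Con for both treatments and give no strain or genotype. The labels call the differentiation adipogenic, whereas the methods describe osteogenic culture. They also do not say whether samples of a treatment came from separate preparations of cells, so the p-values measure the spread between these samples, which may be technical.

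VEGF ligands are secreted dimers that bind receptor tyrosine kinases. Vegfa acts through Kdr (VEGFR2), the main signalling receptor of endothelial cells, while Flt1 (VEGFR1) binds Vegfa tightly and, in its soluble form, works as a decoy, and neuropilins serve as coreceptors that also bind class 3 semaphorins. Angiopoietins act through the receptor Tek (Tie2), with Angpt1 as the activating ligand and Angpt2 as a ligand that depends on context. In bone, osteoblast-derived Vegfa is known for linking vessel growth to bone formation.

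Osteoblast markers were abundant and adipocyte markers were low in all samples. The former summed to 44019 to 51022 CPM (counts scaled to the library size) with vehicle and 44228 to 61115 with PTH, and the latter to 39.8 to 55.5 and 34.8 to 54.9. Most of the osteoblast sum was Col1a1, a collagen gene that other mesenchymal cells also express (44362 ± 2309 CPM with vehicle and 48173 ± 7733 with PTH, SD, n = 4 each). The median gene of the osteoblast list was at 201 to 334 CPM with vehicle and 201 to 316 with PTH, and that of the adipocyte list at 2.67 to 5.24 and 3.42 to 5.24 CPM. Of 10 osteoblast markers 3 fell, with the largest decrease in the transcription factor gene Sp7 (103 ± 29.6 to 30.1 ± 3.26 CPM, SD, n = 4 each), and of 7 tested adipocyte markers Pparg fell (16.0 ± 1.42 to 5.67 ± 0.573 CPM). Tnfsf11 (RANKL), a known target of PTH in osteoblasts, went from 1.42 ± 0.365 to 128 ± 20.0 CPM, and the PTH receptor gene Pth1r from 136 ± 21.1 to 83.6 ± 11.6 CPM. Total counts were 33605610 to 56090654 per sample, with the fewest in PTH sample 2 and the most in PTH sample 1, and these samples also lay farthest apart on the second principal component (−41.99 and 43.57, against −9.69 and 12.51 for the other PTH samples). PTH changed 7669 of 16736 tested genes (45.8%) at an adjusted p under 0.05 in edgeR, so that a call alone was common: 3907 genes rose (23.3%) and 3762 fell (22.5%).

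Promoter sequences of the 4 members that rose, Vegfa, Flt1, Kdr and Nrp1, are shown for comparison of their motifs. Each run is the 240 bases from 250 to 11 bases before the start in RefSeq (GRCm38.p6), 5′ to 3′ on the gene's strand, and capitals mark the GC box GGGCGG on either strand (CCGCCC where it lies on the other strand) or, in Flt1, also the cAMP response element TGACGTCA. The Vegfa window is chr17:46032388-46032627, minus strand, upstream of the outer of its 2 listed starts. The Flt1 window is chr5:147726022-147726261 and the Kdr window chr5:75978466-75978705, both minus strand. The Nrp1 window is chr8:128358823-128359062, plus strand, and lies within the GENCODE gene between annotated exons.
Vegfa: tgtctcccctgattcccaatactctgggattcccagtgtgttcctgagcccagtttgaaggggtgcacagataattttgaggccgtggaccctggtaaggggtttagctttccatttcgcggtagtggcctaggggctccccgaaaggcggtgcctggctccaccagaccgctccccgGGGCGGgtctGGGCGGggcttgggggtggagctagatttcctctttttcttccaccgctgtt
Flt1: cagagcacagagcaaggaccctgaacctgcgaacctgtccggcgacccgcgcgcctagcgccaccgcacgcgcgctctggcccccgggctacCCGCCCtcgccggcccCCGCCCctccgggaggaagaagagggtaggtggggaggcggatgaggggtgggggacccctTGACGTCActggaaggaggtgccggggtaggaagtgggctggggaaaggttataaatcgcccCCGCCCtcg
Kdr: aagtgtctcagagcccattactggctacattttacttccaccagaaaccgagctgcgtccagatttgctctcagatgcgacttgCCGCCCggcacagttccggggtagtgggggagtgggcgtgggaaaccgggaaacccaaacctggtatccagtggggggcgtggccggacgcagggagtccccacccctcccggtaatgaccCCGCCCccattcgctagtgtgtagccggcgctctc
Nrp1: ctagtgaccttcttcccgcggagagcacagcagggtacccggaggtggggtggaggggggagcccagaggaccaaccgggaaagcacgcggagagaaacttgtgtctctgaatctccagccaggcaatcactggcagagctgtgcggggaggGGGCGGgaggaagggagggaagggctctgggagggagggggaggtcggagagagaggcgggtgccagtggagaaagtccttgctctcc

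Flt1 was the only member whose window held TGACGTCA, the palindromic site bound by CREB family factors, at position −81 from its start. Of 32851 promoter windows of 300 bases (250 before to 50 after the start) for 27025 genes, 1.79% held it on either strand, and its shorter core TGACG, which lies within it, was in 20.8%. The outer Vegfa window held 2 GC boxes, at −72 and −62, and neither TGACG nor the hypoxia response core ACGTG. Its inner start, whose window overlaps an exon and is not printed, had TGACG and ACGTG at overlapping positions, at −209 and −211. The Kdr window held 2 GC boxes and the Nrp1 window 1, at −98. GC boxes were not particular to the members that rose. The windows of Vegfb (4) and Vegfc (2), which fell, held them. So did those of Nrp2 (5) and Pgf (0 and 2 at its listed starts), which did not pass the test. GC boxes occurred in 35.7% of all windows and ACGTG in 19.6%. The site AAAGGTCA of NR4A receptors, held by 1.51% of windows, was in none of the member windows. Windows were available for 8 of the 10 members. Angpt1 and Angpt2 were not matched.

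Vegfa had the largest change of the 10 genes. The gene lies on chromosome 17 at 46016993 to 46032369 (minus strand, GENCODE M21 on GRCm38). It was measured at 28.9, 24.9, 31.0 and 41.5 CPM in vehicle samples 1 to 4 and at 92.3, 154, 120 and 127 CPM in PTH samples 1 to 4. Every PTH sample lay above every vehicle sample. The mean went from 31.6 ± 7.07 to 123 ± 25.3 CPM (SD, n = 4 each), a 3.90-fold increase, with a log2 fold change of 1.96 ± 0.17 (SE) and an adjusted p of 1.63e-06 in edgeR. Its change was larger in size than that of 96.4% of tested genes. Counts per gene do not separate the isoforms of Vegfa, which differ in their binding to heparan sulphate and neuropilin. In bulk RNA, a change in the number of cells of a type and a change in RNA per cell cannot be told apart. Macrophages also make Vegfa, and their 10 markers, none of which was at 0, summed to 1006 to 1630 CPM with vehicle and 1575 to 2034 CPM with PTH, mostly from Lyz2. Of these markers, 2 rose and 0 fell, beside 23.3% and 22.5% of all tested genes. Those that rose were Lyz2 (914 ± 187 to 1417 ± 203 CPM, adjusted p = 0.00312 in edgeR) and Cd14. Vehicle sample 4 had the highest sum and the highest Vegfa of the vehicle samples, and PTH samples 2 and 1 had the highest and the lowest of both among the PTH samples. The part of this difference in the Vegfa result was not tested.

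**Figure D1:**
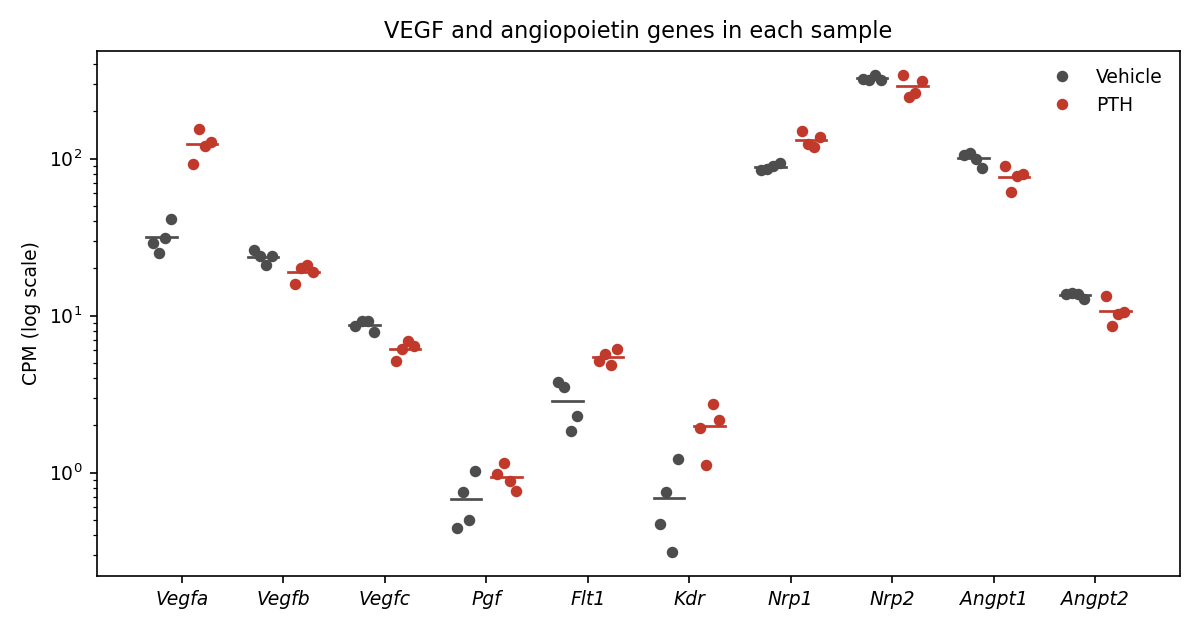
CPM (log scale) of each of the 10 genes in the 4 vehicle samples (grey) and 4 PTH samples (red). Points are samples in the order 1 to 4 and lines are means. Vegfa, Flt1 and Nrp1 separated upward and Vegfc downward, while the treatments overlapped for the other genes.

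The other ligands for VEGF receptors moved less than Vegfa, and those that changed did so in the opposite direction. Vegfb, a ligand of Flt1 on chromosome 19 (6982473 to 6987651, minus strand), was measured at 26.2, 23.9, 21.1 and 24.0 CPM with vehicle and 15.9, 20.0, 21.2 and 19.0 CPM with PTH. The ranges met, since PTH sample 3 was just above vehicle sample 3. The log2 fold change was −0.32 ± 0.10 (SE; adjusted p = 0.0205 in edgeR). Without vehicle sample 1 it was −0.28 with an adjusted p of 0.0545, and with an offset for transcript length it was −0.52.

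Vegfc, the ligand best known for lymphatic growth through Flt4, is on chromosome 8 (54077606 to 54187096, plus strand). It stood at 8.61, 9.21, 9.31 and 7.90 CPM with vehicle and 5.11, 6.17, 6.89 and 6.44 CPM with PTH. Each PTH sample was below each vehicle sample, with a log2 fold change of −0.51 ± 0.12 (SE; adjusted p = 0.00490 in edgeR). Vegfd, the close relative of Vegfc and listed under its older symbol Figf, fell as well, from 106 ± 6.04 to 87.9 ± 6.31 CPM (SD, n = 4 each), again without overlap (log2 fold change −0.27 ± 0.07, adjusted p = 0.00792 in edgeR). Pgf, the placental growth factor, which binds Flt1, lies on chromosome 12 (85166635 to 85177790, minus strand) and was scarce. It had 20 to 51 counts per vehicle sample and 32 to 50 per PTH sample, 0.683 ± 0.267 and 0.942 ± 0.161 CPM (SD, n = 4 each). The treatments overlapped and the difference did not pass the test (log2 fold change 0.46 ± 0.35, adjusted p = 0.318 in edgeR).

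Per kilobase of exon, which allows levels of different genes to be compared, the ligand transcripts shifted toward Vegfa. Vegfa made up 10.5% ± 2.30 of the 5 VEGF ligand transcripts with vehicle (range 8.28% to 13.7%) and 35.7% ± 5.15 with PTH (30.2% to 42.7%; SD, n = 4 each). Vegfd stayed the most abundant on average, at 62.8% ± 2.88 and 45.9% ± 5.51, and Vegfb went from 21.2% ± 2.23 to 14.8% ± 1.08. The 5 ligands together amounted to 68.2 to 71.1 CPM per kb with vehicle and 71.3 to 84.2 CPM per kb with PTH, so the sums did not overlap but lay close. In CPM, the ratio of Vegfa to Vegfb was 1.04 to 1.73 with vehicle and 5.66 to 7.69 with PTH, a difference of 2.29 on the log2 scale (two-sided exact permutation test, p = 0.0286, the smallest that 4 against 4 samples can give; adjusted over 4 ratios, 0.0381).

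**Figure D2:**
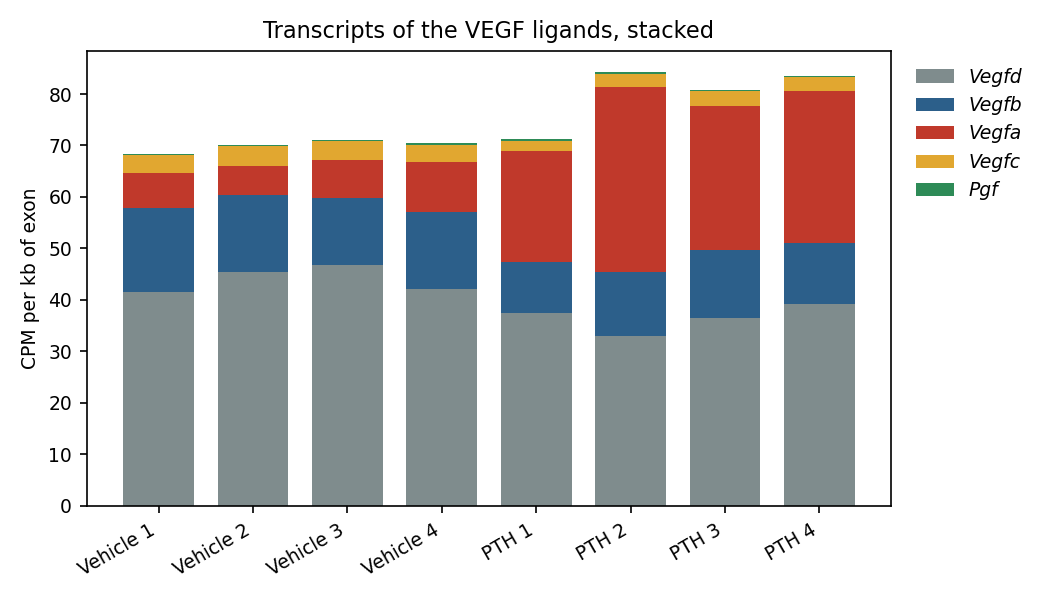
Stacked CPM per kb of exon for the 5 VEGF ligands in each of the 8 samples. The Vegfa share (red) was 8.28% to 13.7% in vehicle samples and 30.2% to 42.7% in PTH samples, and the bars for PTH were slightly taller.

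Among the receptor tyrosine kinases, both receptors of Vegfa increased from low levels. Flt1 lies on chromosome 5 (147561604 to 147726011, minus strand). It was measured at 3.77, 3.51, 1.84 and 2.30 CPM with vehicle (88 to 169 counts) and 5.17, 5.72, 4.88 and 6.16 CPM with PTH (187 to 265 counts). The treatments did not overlap, and the log2 fold change was 0.94 ± 0.22 (SE; adjusted p = 0.00427 in edgeR). The counts do not tell soluble from membrane-bound Flt1.

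Kdr, also on chromosome 5 (75932827 to 75978458, minus strand), was among the least abundant of the 10 genes. Its counts were 21, 33, 15 and 61 in vehicle samples 1 to 4 and 98, 37, 105 and 91 in PTH samples 1 to 4, or 0.692 ± 0.403 and 1.98 ± 0.675 CPM (SD, n = 4 each). Vehicle sample 4 (1.23 CPM) was above PTH sample 2 (1.11 CPM), so the treatments overlapped. The log2 fold change was 1.51 ± 0.42 (SE; adjusted p = 0.0107 in edgeR), and without any 1 sample it lay between 1.27 and 1.95 and kept its call. Flt4, the receptor of Vegfc and Vegfd, was at 0.774 ± 0.110 CPM with vehicle and 1.03 ± 0.403 CPM with PTH (adjusted p = 0.377 in edgeR). Summed per kilobase, the 3 kinases amounted to 0.252 to 0.447 CPM per kb with vehicle and 0.704 to 0.773 CPM per kb with PTH, without overlap.

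Endothelial cells are the usual site of these receptors, and their markers were mostly near 0. Of 18 endothelial markers, 10 were under 1 CPM in all samples and 2 had no count in any. Pecam1 (CD31) was at 0.403 ± 0.228 CPM with vehicle and 0.440 ± 0.318 with PTH, and Cdh5 (VE-cadherin) at 0.525 ± 0.195 and 0.360 ± 0.204, and neither passed the test (adjusted p = 0.916 and 0.348 in edgeR). Kdr itself was at 0.692 ± 0.403 and 1.98 ± 0.675 CPM. Which cells held the receptor transcripts was not tested. The sums over the list, 151 to 174 CPM with vehicle and 172 to 186 CPM with PTH, came mostly from Eng, a TGF-β coreceptor that other cells also express (130 ± 9.86 and 108 ± 14.3 CPM, adjusted p = 0.0401 in edgeR). The call for Eng was lost without PTH sample 2 or 3 or vehicle sample 2, 3 or 4 (adjusted p of 0.0776 to 0.129). Of the 12 tested markers, 2 rose and 3 fell, beside 23.3% and 22.5% of all tested genes. The largest increase was in Ptprb, the phosphatase VE-PTP that acts on Tek and Kdr, from 2.72 ± 0.724 to 23.2 ± 1.87 CPM (log2 fold change of 3.09 with an adjusted p of 2.30e-08 in edgeR), and the largest decrease in the transcription factor gene Sox18 (1.23 ± 0.481 to 0.462 ± 0.105 CPM, a log2 fold change of −1.41 with an adjusted p of 0.00864 in edgeR). Erg also rose, without overlap (16.8 ± 0.648 to 33.5 ± 9.17 CPM, a log2 fold change of 0.99 with an adjusted p of 0.000322 in edgeR).

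The coreceptors were far more abundant than the kinases, and Nrp1 rose while Nrp2 did not pass the test. Nrp1, on chromosome 8 (128358604 to 128503363, plus strand), shares its assembled locus with the microRNA gene Mir1903. It was measured at 84.7, 85.8, 89.5 and 94.4 CPM with vehicle and 151, 123, 118 and 137 CPM with PTH. All PTH samples lay above all vehicle samples, with a 1.49-fold higher mean and a log2 fold change of 0.58 ± 0.08 (SE; adjusted p = 0.000109 in edgeR).

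Nrp2, on chromosome 1 (62703285 to 62818695, plus strand), had the highest CPM of the 10 genes. It stood at 324, 318, 341 and 318 CPM with vehicle and 343, 245, 263 and 313 CPM with PTH. PTH sample 1 was above all vehicle samples and the other PTH samples were below them, and the log2 fold change was −0.16 ± 0.10 (SE; adjusted p = 0.208 in edgeR). Without PTH sample 1 it was −0.25 with an adjusted p of 0.0269. The ratio of Nrp1 to Nrp2 was 0.262 to 0.297 with vehicle and 0.436 to 0.503 with PTH, a log2 difference of 0.75 (two-sided exact permutation test, p = 0.0286, adjusted p = 0.0381). Per kilobase, Nrp1 formed 24.8% ± 1.12 of neuropilin transcripts with vehicle and 35.6% ± 1.51 with PTH (SD, n = 4 each). With the longest transcript as length, a choice made after the data were seen, the Nrp1 share was larger. Nrp1 and Nrp2 then stood at 24.3 and 48.4 CPM per kb with vehicle and 36.3 and 43.3 with PTH. By exon they stood at 9.05 and 27.5, and at 13.5 and 24.6.

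Semaphorins and plexins are the other partners of neuropilins. Of 12 tested, 2 rose and 3 fell, near the 23.3% and 22.5% of all tested genes, with a median log2 fold change of −0.17 beside −0.0008 over all tested genes. Sema3g, a class 3 semaphorin, had the largest increase (1.41 ± 0.305 to 2.86 ± 0.653 CPM, a log2 fold change of 1.02 with an adjusted p of 0.00534 in edgeR). Plxna1, a signalling partner of neuropilins for semaphorins, had the largest decrease (296 ± 16.6 to 208 ± 11.2 CPM, a log2 fold change of −0.50 with an adjusted p of 8.19e-05 in edgeR).

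Both angiopoietins of the group were lower with PTH. Angpt1, on chromosome 15 (42424723 to 42676977, minus strand), was measured at 105, 109, 100.1 and 87.0 CPM with vehicle and 89.2, 61.2, 77.0 and 80.2 CPM with PTH. PTH sample 1 lay above vehicle sample 4, and otherwise the treatments were apart (log2 fold change −0.38 ± 0.11, adjusted p = 0.0122 in edgeR). Angpt2, on chromosome 8 (18690263 to 18741562, minus strand), was at 13.8, 13.9, 13.8 and 12.7 CPM with vehicle and 13.4, 8.64, 10.2 and 10.5 CPM with PTH. Here PTH sample 1 lay within the vehicle range, and the log2 fold change was −0.34 ± 0.12 (SE; adjusted p = 0.0396 in edgeR). This call was narrow: it was lost in DESeq2 (adjusted p = 0.0508) and when any 1 sample other than PTH sample 1 was left out (adjusted p of 0.0522 to 0.107). The ratio of Angpt1 to Angpt2 was 6.83 to 7.83 with vehicle and 6.66 to 7.65 with PTH, a log2 difference of −0.03 with SDs of 0.0869 and 0.0910 (two-sided exact permutation test, p = 0.629).

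Angpt4, a less studied Tek ligand, did not pass the test (4.43 ± 0.663 and 5.25 ± 1.29 CPM, adjusted p = 0.312 in edgeR). Tek, the receptor, fell from 4.87 ± 0.562 to 3.46 ± 0.436 CPM without overlap (SD, n = 4 each; log2 fold change −0.49 ± 0.16, adjusted p = 0.0215 in edgeR). Its adjusted p was 0.0581 without PTH sample 3 and 0.0664 without vehicle sample 3. Tie1, the partner receptor of Tek, had 0 to 2 counts per vehicle sample and 0 to 6 per PTH sample and was not tested. Of 5 tested angiopoietin-like genes, whose products do not bind Tek, 1 rose, beside 23.3% of all tested genes. This was Angptl2 (151 ± 14.9 to 299 ± 58.3 CPM, a log2 fold change of 0.99 with an adjusted p of 4.85e-05 in edgeR), and the other 4 did not pass the test.

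Pericytes are a further source of Angpt1. Their 10 mural markers, none at 0 in all samples, summed to 371 to 420 CPM with vehicle and 247 to 270 CPM with PTH. Of the 9 tested, 1 rose and 2 fell, beside 23.3% and 22.5% of all tested genes, and 6 did not pass the test. The increase was in the adhesion molecule Mcam (4.21 ± 0.752 to 23.2 ± 3.53 CPM, a log2 fold change of 2.46 with an adjusted p of 5.96e-08 in edgeR). The decreases included the PDGF receptor Pdgfrb (240 ± 23.9 to 106 ± 7.01 CPM, a log2 fold change of −1.18 with an adjusted p of 2.70e-07 in edgeR), which is also expressed by osteoblast lineage cells. Most of the fall in the summed CPM of the list was in Pdgfrb alone. The part of this list in the angiopoietin result was not tested.

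Over the 10 members, 4 rose and 4 fell, beside 23.3% and 22.5% of all tested genes, and in 4 the treatments did not overlap, beside 43.0% of all tested genes. Their median absolute log2 fold change was 0.48, beside 0.35 over all tested genes. By exact permutation of samples, Vegfa, Vegfc, Flt1 and Nrp1 reached the smallest possible p of 0.0286, and Vegfb, Kdr, Angpt1 and Angpt2 had p = 0.0571.

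**Figure D3:**
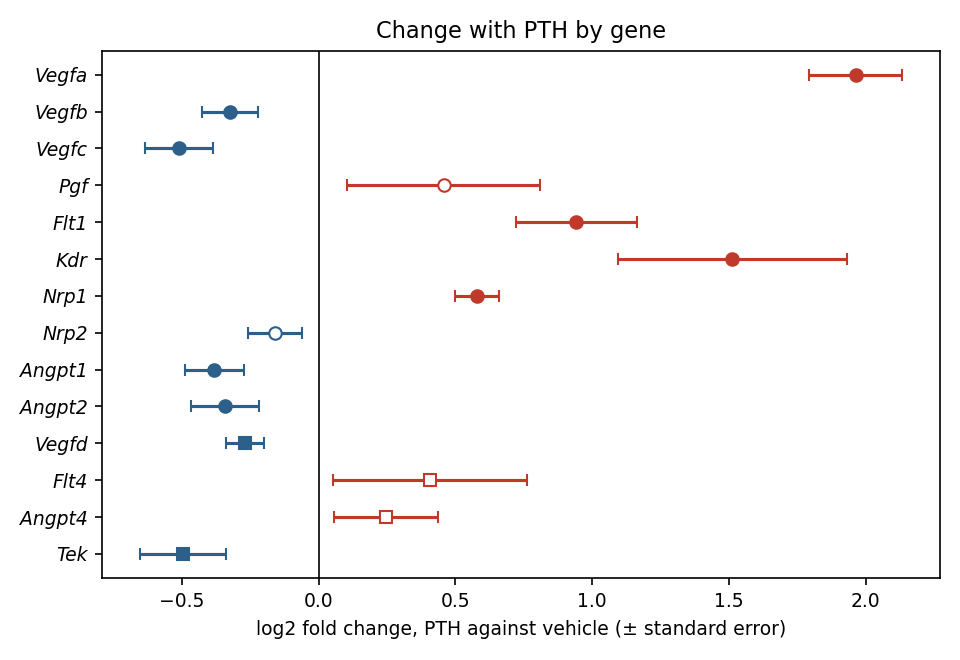
Log2 fold change (PTH against vehicle, edgeR) with its standard error for the 10 members (circles) and 4 tested relatives (squares). Filled symbols passed an adjusted p of 0.05, with increases in red and decreases in blue. Vegfa at 1.96 and Kdr at 1.51 stand farthest from 0, and the called decreases lie between −0.51 and −0.27.

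The order of transcript levels per kilobase of exon was described separately for each treatment. With vehicle, the mean levels fell from Vegfd (44.0 CPM per kb) through Nrp2 (27.5), Angpt1 (19.3), Vegfb (14.8), Nrp1 (9.05) and Vegfa (7.37) to Angpt2 (3.68) and Vegfc (3.58), and Pgf (0.235), Flt1 (0.211) and Kdr (0.0767) were lowest of the 10 genes. Nrp1 and Vegfa overlapped, as did Angpt2 and Vegfc, and Pgf and Flt1. With PTH, Vegfa reached 28.8 CPM per kb and overlapped both Vegfd (36.5) and Nrp2 (24.6). Angpt1 (14.8), Nrp1 (13.5) and Vegfb (11.9) followed and overlapped, then Angpt2 (2.89) and Vegfc (2.51), and Flt1 (0.406), Pgf (0.324) and Kdr (0.220) again came last. Dividing by the longest annotated transcript in place of all exons, a choice made after the data were seen, changed this order. With vehicle, Nrp1 (24.3 CPM per kb) then stood above Angpt1 (23.5) and Vegfb (18.6). With PTH, Nrp2 (43.3) stood just above Vegfd (42.9), and Nrp1 (36.3) just above Vegfa (35.7) and above Angpt1 (18.1).

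Vegfa was also set against Flt1, whose counts do not separate the soluble decoy from the membrane-bound form. The ratio of Vegfa to Flt1 in CPM was 7.66, 7.09, 16.9 and 18.0 in vehicle samples 1 to 4 and 17.9, 26.9, 24.6 and 20.6 in PTH samples 1 to 4. PTH sample 1 lay just below vehicle sample 4. The log2 difference was 0.99 with 0.1 CPM added to each gene (two-sided exact permutation test, p = 0.0286, adjusted p = 0.0381), which reverses the order of these samples. With nothing added, a choice made after the data were seen, it was 0.97 with an exact p of 0.0571, so the call rested on the added constant. The log2 ratios had a wider spread among vehicle samples (SD 0.704) than among PTH samples (SD 0.263).

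**Figure D4:**
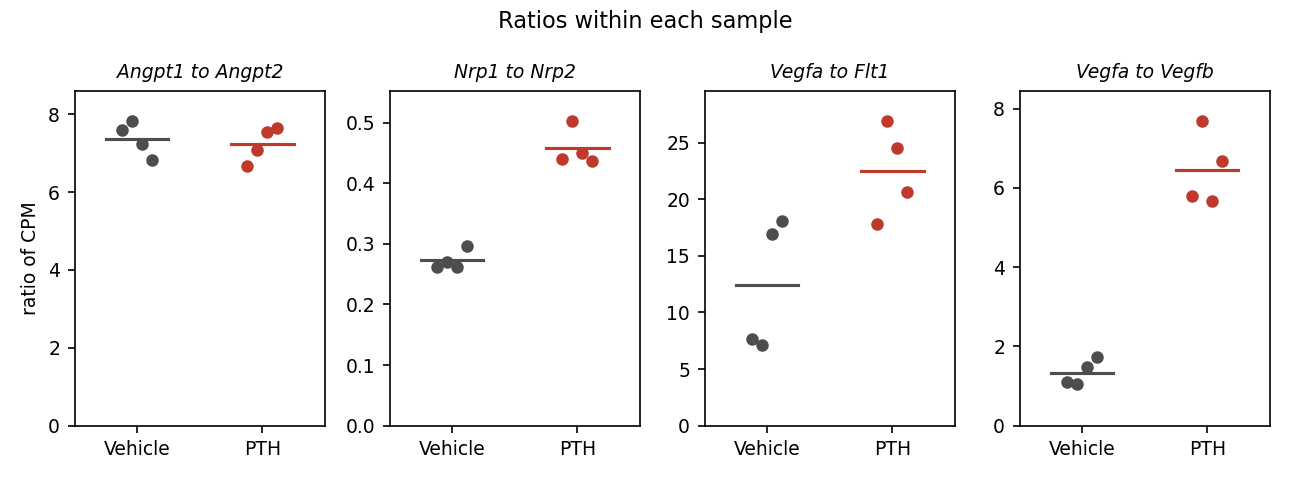
Ratios of CPM within each sample for 4 gene pairs, with vehicle in grey and PTH in red. Lines are means of 4 samples and each axis starts at 0. The ratio of Nrp1 to Nrp2 and that of Vegfa to Vegfb separated by treatment, and that of Angpt1 to Angpt2 did not.

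Genes of the relay downstream of VEGF receptors were called about as often as genes in general. Of 50 tested, 12 rose and 13 fell, beside 23.3% and 22.5% of all tested genes, with a median log2 fold change of −0.02. The increases were led by Ptgs2 (COX-2, a prostaglandin synthase), from 2.69 ± 1.18 to 153 ± 16.7 CPM (log2 fold change of 5.82 with an adjusted p of 1.59e-09 in edgeR). The sphingosine kinase gene Sphk1 (25.2 ± 2.36 to 165 ± 13.0 CPM), the transcription factor gene Nfatc2 (7.01 ± 0.674 to 44.5 ± 4.52 CPM) and the PI3K catalytic subunit gene Pik3cd (8.37 ± 1.53 to 49.5 ± 6.06 CPM) followed. The adaptor gene Shb, whose product binds Kdr, rose from 9.55 ± 1.04 to 15.1 ± 2.37 CPM (log2 fold change of 0.66 with an adjusted p of 0.00123 in edgeR). Decreases were led by the PI3K regulatory subunit gene Pik3r1 (151 ± 8.75 to 72.9 ± 2.35 CPM, a log2 fold change of −1.05 with an adjusted p of 5.96e-08 in edgeR) and the adaptor gene Nck2 (32.2 ± 0.614 to 16.3 ± 0.747 CPM). Plcg1, the phospholipase recruited by activated Kdr, fell by 0.34 (log2; edgeR adjusted p = 0.000571) and Ptk2, the focal adhesion kinase, fell by 0.33 (adjusted p = 0.00416).

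Extracellular modulators of VEGF and of vessel growth were taken as a further list. Of 14 tested, 3 rose and 4 fell, again near the 23.3% and 22.5% of all tested genes (median log2 fold change −0.19). Adamts1, a secreted protease that can sequester Vegfa, rose from 151 ± 4.94 to 929 ± 54.1 CPM (log2 fold change of 2.62 with an adjusted p of 6.20e-11 in edgeR). Ccn2 (CTGF), which binds Vegfa, fell from 132 ± 7.61 to 37.9 ± 4.99 CPM (log2 fold change of −1.80 with an adjusted p of 1.64e-08 in edgeR), and Thbs1, the angiogenesis inhibitor thrombospondin-1, from 8290 ± 608 to 5240 ± 583 CPM (log2 fold change of −0.66 with an adjusted p of 0.000289 in edgeR). Other secreted factors with known effects on vessels gave 5 increases and 2 decreases among 15 tested, beside 23.3% and 22.5% of all tested genes (median 0.33). Il6 had 0 to 4 counts per vehicle sample and 8818 to 10113 per PTH sample. Fgf2 rose from 37.0 ± 1.68 to 96.2 ± 3.67 CPM, and Adm (adrenomedullin, a vasodilator peptide) fell from 14.5 ± 0.309 to 1.62 ± 0.297 CPM (log2 fold changes 1.38 and −3.16, adjusted p = 4.78e-09 and 3.02e-09 in edgeR).

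Vegfa is a classical target of hypoxia-inducible factors, so the genes of oxygen sensing were examined beside it. Of 10 such genes, 3 rose and 4 fell, beside 23.3% and 22.5% of all tested genes (median log2 fold change 0.09). Arnt, the common partner of these factors, was measured at 84.6 ± 5.22 CPM with vehicle and 134 ± 4.28 CPM with PTH (log2 fold change 0.66 and adjusted p of 4.40e-06 in edgeR). Arnt2 went the other way, from 66.4 ± 4.45 to 42.6 ± 4.27 CPM (log2 fold change −0.64 and adjusted p of 5.60e-05 in edgeR). The subunit gene Epas1 (HIF-2α) rose by 0.25 on the log2 scale (67.0 ± 3.25 to 79.5 ± 6.41 CPM, adjusted p = 0.0143 in edgeR). Hif1a fell by 0.22 (226 ± 10.3 to 195 ± 17.6 CPM, adjusted p = 0.0330 in edgeR), a call lost when any sample other than PTH sample 1 and vehicle sample 1 was left out (adjusted p of 0.0675 to 0.0977). Hif3a had 16 to 49 counts per vehicle sample and 0 to 3 per PTH sample. Egln1 fell by 0.40 and Hif1an rose by 0.26 (log2; adjusted p = 0.00193 and 0.00599 in edgeR). Among 18 other genes that hypoxia is known to induce, 10 rose and 2 fell, beside 23.3% and 22.5% of all tested genes, with a median of 0.44. The other 6, Pgk1, Ankrd37, Bnip3, Car9, Ero1a and P4ha1, did not pass the test (adjusted p of 0.0536 to 0.951 in edgeR). Of the 18 genes, Hk2 (hexokinase 2), which other signals also control, had the largest increase (12.5 ± 2.23 to 139 ± 8.62 CPM, a log2 fold change of 3.47 with an adjusted p of 3.43e-10 in edgeR). The largest decrease was in Pdk1, which restrains pyruvate oxidation (40.6 ± 5.25 to 29.8 ± 2.38 CPM, a log2 fold change of −0.45 with an adjusted p of 0.00250 in edgeR).

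**Figure D5:**
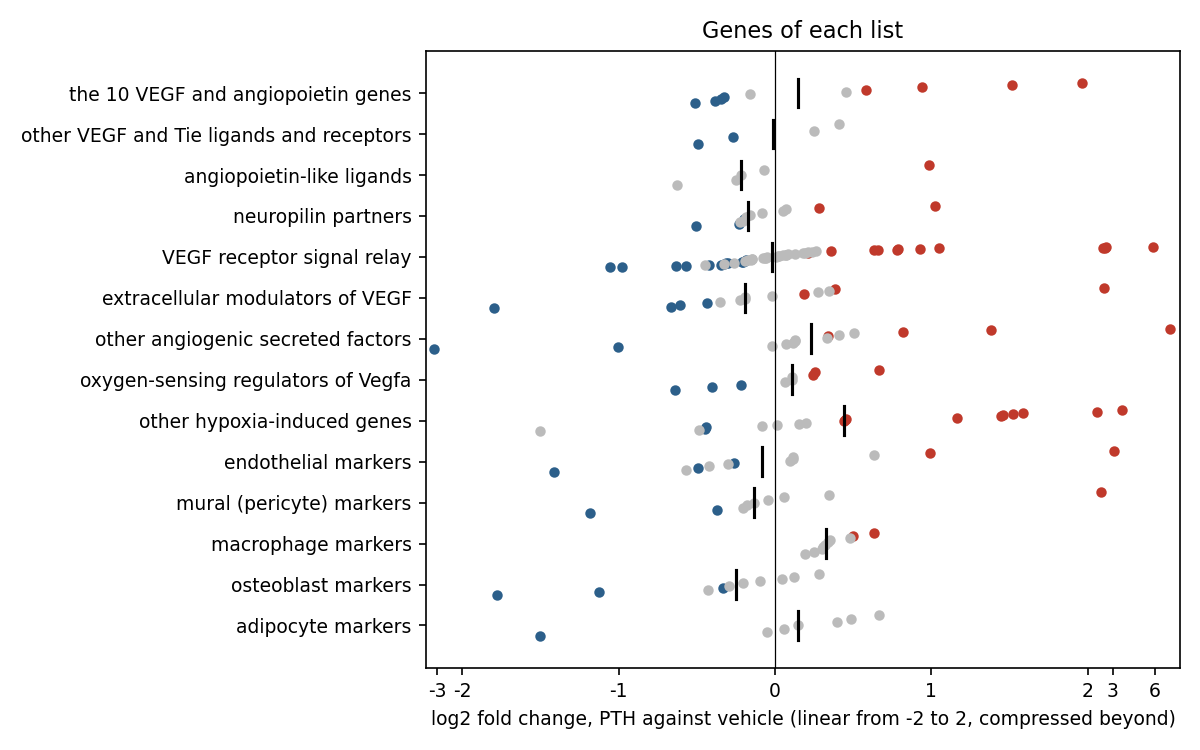
Log2 fold change (PTH against vehicle) of the tested genes in 14 lists, with increases past an adjusted p of 0.05 in red, decreases in blue, other genes in grey and a black bar at the median of those drawn. Il6 and Hif3a, nearly absent in 1 treatment, are left out. The axis is linear between −2 and 2 and compressed beyond. Of these lists, the hypoxia-induced genes have the highest median.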

How the data were processed

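The authors prepared poly(A) libraries, sequenced them as paired reads of 150 bases on a NovaSeq instrument, used HISAT2 for alignment to GRCm38 and SAMtools for sorting, and built transcripts with StringTie2. The deposited table holds raw counts per gene for the 8 samples, derived by a companion script of StringTie2 from transcript coverage with no normalization, and the authors tested them with DESeq2. That script assumes 75 bases per read unless told otherwise. The value used, the annotation and the strand setting are not given in the sources used here, so reads of overlapping antisense genes may be included.

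Samples were grouped by their titles. PTH was compared with vehicle in edgeR 4.0.16 (R 4.3.3; TMM, two-sided quasi-likelihood F-test, all 8 samples) over the 16736 genes kept by filterByExpr (minimum count 10, minimum total 15), and Benjamini-Hochberg adjusted p-values under 0.05 were called. Fold changes are given ± SE. CPM used TMM library sizes. Ratios and single genes were compared by two-sided exact permutation tests on log2(CPM + 0.1) in SciPy 1.17.1. Exon lengths and positions came from GENCODE M21 and promoters from RefSeq. Every member, its relatives, the largest called change each way of each list, Tnfsf11, Pth1r and further listed genes that show what a list holds were named. The members and lists were chosen with earlier results of these data known, and some genes stand in more than 1 list. Alternatives were DESeq2 1.42.0, its size factors, no filter, a minimum log2 fold change of 1, the replicate number as a block, halved counts, counts summed by symbol, a length offset, another pseudocount and leaving out each sample. No pair of replicates agreed within sampling noise.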

Additional observations from a re-analysis of the deposited data

Results flagged for a closer look

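In 110 sets of 4 samples, 1 sample of 4 sets stood apart from the rest by Dixon's test at the 95% level, which chance does in about 1 in 20 sets. Angpt2 in vehicle sample 4 was 12.7 CPM, with the other vehicle samples between 13.8 and 13.9 CPM. Tie1 was at 0.143 CPM (6 counts) in PTH sample 4 and at 0 in the other PTH samples. Tnfsf11 in PTH sample 1 was 157 CPM, with the others at 115 to 120 CPM. Ptk2 in PTH sample 2 was 44.5 CPM, with the others at 53.4 to 54.4 CPM.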

How the results depend on the processing

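The calls for Vegfa and Kdr held under every alternative, and those for Vegfc, Flt1, Nrp1 and Angpt1 under all but a minimum log2 fold change of 1. With that minimum, 2 members rose and 0 fell (1232 and 650 of all tested genes), and Vegfb (−0.32), Vegfc (−0.51), Flt1 (0.94), Nrp1 (0.58), Angpt1 (−0.38) and Angpt2 (−0.34) were no longer called by construction. Leaving out 1 sample at a time gave 4 increases each time and 2 to 5 decreases, with 2 without vehicle sample 1. Log2 fold changes then ranged from −0.38 to −0.25 for Vegfb, −0.25 to −0.076 for Nrp2 (called only without PTH sample 1) and −0.47 to −0.24 for Angpt2. The call for Angpt2 was also lost in DESeq2 (−0.34, adjusted p = 0.0508), with its size factors (−0.33, adjusted p = 0.0524) and without the filter (−0.37, adjusted p = 0.0504), and the cause was not tested. Same-numbered samples of the treatments did not deviate together (correlations of −0.041 to 0.027), and no PTH sample correlated best with the vehicle sample of its number. With the replicate number as a block, Vegfb was −0.33 with an adjusted p of 0.0525, Tek −0.49 with 0.0575, and 3571 genes rose and 3432 fell. Hif1a and Eng were also lost under the block. Pecam1, not called in any fit, turned to −0.0084 under the block, and without 1 sample it lay between −0.44 (PTH sample 2) and 0.36, with −0.26 without vehicle sample 2. With no constant added to the CPM, chosen after the data were seen, the ratio of Vegfa to Flt1 was 0.97 (log2; exact permutation p = 0.0571) and lost its call. The other 47 repeats of the ratios kept their side of the threshold or, where a sample was left out or pairing by number allows no p below 0.0571 and 0.125, their value within the replicate spread. For pairing by number and counts summed by symbol, the ratio values could not change. Pairing keeps the mean difference, and each symbol had 1 entry. With the longest transcript as length, added after the data were seen, Vegfa formed 11.0% and 36.8% of VEGF ligand transcripts. Depth limits Pgf, Kdr and Flt4, at 15 to 105 counts per sample, and left Tie1 untested.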

Other observations

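Nrp1, Nrp2, Angpt1 and Angpt2 varied more among PTH samples than among vehicle samples. The coefficient of variation was 15.5% with PTH and 3.38% with vehicle for Nrp2, 18.6% and 4.13% for Angpt2, 15.2% and 9.56% for Angpt1, and 11.1% and 4.95% for Nrp1. It was also higher with PTH for Vegfc (12.3% and 7.39%) and Vegfb (11.8% and 8.86%), but not for Vegfa (20.5% and 22.4%) or Pgf (17.1% and 39.1%). PTH sample 1 was the highest of the PTH samples for Nrp1, Nrp2, Angpt1 and Angpt2 and the lowest for Vegfa, Vegfb and Vegfc. PTH sample 2 was the lowest for Nrp2, Angpt1, Angpt2 and Kdr and the highest for Vegfa and Pgf. Among the low-count receptors, the coefficient of variation was 34.1% with PTH and 58.2% with vehicle for Kdr, 10.4% and 32.7% for Flt1, and 39.2% and 14.3% for Flt4. PTH samples 1 and 2 were also the deepest and the shallowest libraries, and the part of depth in this order was not tested.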
